A study of Homo sapiens with 145 samples.

Results

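The comparison described here is that of HT-1080 cells exposed to quercetin at 60 µM with HT-1080 cells given the DMSO vehicle alone. It rests on 10 of the 145 arrays of the series, 5 of quercetin 60 µM and 5 of its own vehicle group. The arrays were chosen by their titles, leaving out the array numbered 2 in each group. That choice was made from the measured responses, since number 2 of quercetin 60 µM moved like the etoposide arrays, so counts are also given with number 2 where they differ by much. HT-1080 is an established human fibrosarcoma line, a mesenchymal tumour line kept in culture. Treated cells received quercetin (QUE) at 60 µM for 24 h in 24-well plates. Vehicle cells received the same small share of DMSO for the same time, and the quercetin stocks were made up in DMSO, so both groups carry the solvent. The series also holds other quercetin doses from 1 to 100 µM, etoposide (ETP) and methyl methanesulfonate (MMS), each chemical with its own vehicle arrays. Expression was read on Affymetrix arrays, and all values below are log2 expression values. Replicates are numbered 1, 3, 4, 5 and 6, and values on single arrays are always given in that order. The labels do not say whether numbers stand for separate cultures, so p-values measure a spread between arrays, which may be technical. That spread was estimated over all quercetin doses and their vehicle, not over the 10 arrays alone.

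Quercetin is a plant flavonol found in onions, apples and tea. In cell culture it acts as an antioxidant or, by auto-oxidation, as a pro-oxidant, it inhibits several protein kinases, and it can stabilise the cleavage complex of type II topoisomerases. DNA damage activates p53, a transcription factor that induces cell cycle inhibitors, repair genes and death receptors, and through p21 it represses genes that cells need for mitosis. Electrophiles release the factor NRF2 from KEAP1, which raises antioxidant and glutathione genes. Shortage of amino acids or misfolded protein in the endoplasmic reticulum raises translation of ATF4 and thereby its target genes.

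Promoter sequence is shown for some genes of the lists described below. The first 4 are mitotic genes with the cell cycle homology region (CHR, letters TTTGAA), the element through which the DREAM complex represses late cell cycle genes. The next 2 are replication genes with an E2F-like site (TTTGGCGC, TTTCGCGC or TTTCCCGC), and the last 2 are stress genes with a C/EBP-ATF site (TGATGNAA). All are RefSeq windows of build GRCh38.p14, taken from the 250 bases before the annotated start, given 5′ to 3′ on the strand of the gene, with matches on either strand in capitals. They lie at chr14:55191649-55191763 (DLGAP5, minus strand), chr5:163460564-163460631 (HMMR, plus strand), chr15:40161006-40161068 (BUB1B, plus strand), chr1:197146737-197146822 (ASPM, minus strand), chr19:4909447-4909500 (UHRF1, plus strand), chrX:24693741-24693828 (POLA1, plus strand), chr1:212565176-212565263 (ATF3, plus strand) and chr7:97872429-97872516 (ASNS, minus strand).
DLGAP5: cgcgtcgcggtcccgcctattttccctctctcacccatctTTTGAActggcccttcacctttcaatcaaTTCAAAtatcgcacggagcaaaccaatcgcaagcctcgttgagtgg
HMMR: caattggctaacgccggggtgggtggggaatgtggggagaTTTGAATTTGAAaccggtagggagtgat
BUB1B: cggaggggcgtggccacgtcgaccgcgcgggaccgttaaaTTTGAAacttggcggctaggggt
ASPM: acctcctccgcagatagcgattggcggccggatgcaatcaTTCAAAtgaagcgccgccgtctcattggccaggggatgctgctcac
UHRF1: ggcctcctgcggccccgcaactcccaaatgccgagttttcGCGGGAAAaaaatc
POLA1: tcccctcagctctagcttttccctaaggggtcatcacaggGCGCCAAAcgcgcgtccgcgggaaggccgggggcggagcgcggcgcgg
ATF3: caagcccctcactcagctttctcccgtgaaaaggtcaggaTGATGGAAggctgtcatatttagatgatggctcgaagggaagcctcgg
ASNS: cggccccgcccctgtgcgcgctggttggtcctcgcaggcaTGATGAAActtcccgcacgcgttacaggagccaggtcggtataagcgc
Among 9392 tested genes with a promoter entry, 8.58% held the CHR letters in these 250 bases. Of the 46 genes of the G2/M and mitosis list with an entry, 24 held them (52.2%). CCAAT, the letters bound by NF-Y beside many CHR elements, was in 69.6% of these promoters, against 35.4% of all. E2F-like letters were in 16 of 41 G1/S and DNA replication genes (39.0%), against 4.08% of all. The C/EBP-ATF letters were in 3 of 23 ATF4 target genes (13.0%), against 1.46% of all, and the antioxidant response element core (TGACNNNGC) was in 6 of 21 NRF2 target genes (28.6%), against 12.2% of all. The AP-1 letters (TGACTCA) were in 1 of 13 MAPK output genes (7.69%), against 2.54% of all, and in 0 of the 7 that were called. The dioxin response element core (GCGTG) was in 2 of 6 genes of the aryl hydrocarbon receptor axis (33.3%), against 45.9% of all. The p53 half-site was in 3 of 28 p53 target genes (10.7%), against 4.59% of all, and in 1 of the 24 that were called (4.17%). Both strands were searched. These are matches of letters only. Sites outside the 250 bases were not searched, so a low share does not speak to sites further away.

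Of the 10 arrays, 1 carries the suffix nf in its title, vehicle array 4, as does number 2 of quercetin 60 µM, and the labels do not explain it. Without arrays so titled, 3139 genes were called at 60 µM, where all arrays gave 3163. The 10 arrays lay on a common scale, with array medians of 3.34 to 3.39 for quercetin 60 µM and 3.34 to 3.37 for the vehicle. No array was identical to another. The response of number 2 at quercetin 60 µM correlated across genes at 0.168 with that of the other numbers and at 0.668 with the response to etoposide at 3 µM. For the 5 numbers used, these correlations were 0.735 to 0.919 with the other quercetin 60 µM arrays and 0.34 to 0.415 with etoposide. Of 14 mesenchymal markers, 12 reached a log2 value of 4, with group means up to 13.11 at quercetin 60 µM and 13.24 in the vehicle. Endothelial markers did not (0 of 8), 1 of 11 blood markers did (CD68), 2 of 10 nerve and muscle markers did, and 2 of 12 epithelial markers did, KRT8 and KRT18. In bulk RNA, fewer cells with a transcript and less of it per cell cannot be told apart.

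Quercetin at 60 µM raised and lowered large and nearly equal numbers of genes. Mitotic genes fell as a group, p53 target genes rose as a group, and no measured gene of the cytosolic ribosomal protein list passed the test. The genes that rose most included DUSP5, a phosphatase of ERK, the transcription factor KLF5 and the secreted proteoglycan ESM1. Those that fell most included the spindle protein gene DLGAP5, the growth factor gene TGFB2 and the glucose-regulated gene TXNIP. Of 11344 genes tested, 3163 passed an adjusted p of 0.05 in limma's moderated test together with a change of at least 1.5-fold (27.9%), 1620 higher (14.3%) and 1543 lower (13.6%). With number 2 of every quercetin group added, 2447 genes passed, of which 2424 were among those 3163 with the same sign. The ranges of the quercetin and vehicle groups were separate in 2581 of the 3163 genes, and in 4131 of all genes tested (36.4%). The largest rises and falls described below were picked among called genes with separate ranges. Their lack of overlap was therefore set by the choice. At least 4-fold changes were found for 55 genes that rose and 89 that fell. The median change over all tested genes was 0.03. Unless another setting is named, every adjusted p below is over all 11344 genes in this fit, and ± after a change is its SE. The SE and p rest on a variance pooled over the 40 arrays of the quercetin doses and vehicle. They need not follow the spread of the arrays printed beside them. A gene that did not pass missed the adjusted p, the 1.5-fold change or both. Counts of a gene list cover its members above the filter on low values (log2 of 4) and stand beside 14.3% of all genes higher and 13.6% lower. A list member at background in the vehicle could enter only through arrays where it is high, so such counts are descriptions.

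DUSP5 had values of 11.01, 11.67, 11.52, 11.13 and 11.10 with quercetin, against 8.41, 8.50, 9.01, 8.40 and 8.30 in the vehicle. All quercetin arrays lay above all vehicle arrays, by a change of 2.76 ± 0.12, adjusted p = 2.96e-17. KLF5, a zinc finger factor of epithelial and smooth muscle cells, measured 8.78, 8.95, 8.99, 8.64 and 9.25 with quercetin, against 5.90, 5.73, 5.61, 5.90 and 5.73 in the vehicle, a change of 3.15 ± 0.14, adjusted p = 4.41e-17. ESM1, also called endocan and best known from endothelial cells, measured 11.27, 9.60, 10.74, 11.24 and 11.51 with quercetin, against 8.54, 7.45, 7.53, 7.15 and 7.60 in the vehicle. Number 3 was the lowest of the quercetin arrays and number 1 the highest of the vehicle arrays, and the groups did not overlap (3.22 ± 0.39). The histone deacetylase gene HDAC9 was 8.70 ± 0.24 with quercetin and 6.06 ± 0.54 in the vehicle (SD, n = 5 each), a change of 2.64 ± 0.21, adjusted p = 5.39e-12. Of 2 other HDAC9 probe sets above the filter (0.28 and 1.31), 1 was called higher. HSD17B2, which oxidises estradiol to estrone, averaged 6.89 ± 0.67 with quercetin and 4.16 ± 0.68 in the vehicle (SD, n = 5 each), with vehicle arrays spread around the filter level of 4.

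Several of the steepest rises started from a vehicle level under 4, which most arrays read as background, so the size of those changes is uncertain. CYP4F3 and CYP4F2, fatty acid hydroxylases that inactivate leukotriene B4, are close paralogs whose probes may read each other. CYP4F3 measured 6.93, 7.32, 7.67, 6.73 and 7.12 with quercetin, against 2.37, 2.91, 3.09, 2.89 and 2.79 in the vehicle, and CYP4F2 6.03, 6.39, 6.90, 6.03 and 6.28 with quercetin, against 2.64, 2.30, 2.33, 2.11 and 2.39 in the vehicle. Both were higher on every quercetin array, with changes of 4.34 ± 0.26 and 3.97 ± 0.29. TREM2, a receptor of myeloid cells, averaged 6.88 ± 0.54 with quercetin and 2.87 ± 0.08 in the vehicle (SD, n = 5 each). The other genes of this kind were FEZ1, a kinesin adaptor (change 3.12 ± 0.34), the axon guidance gene DRAXIN (2.89 ± 0.26), the cell adhesion gene CEACAM1 (2.85 ± 0.38) and the non-coding RNA gene LINC00663 (2.78 ± 0.21). FEZ1 did not pass on its other probe set above the filter (0.48). LCE1B, a late cornified envelope gene of skin with near-identical family members, averaged 7.18 ± 0.91 with quercetin and 4.00 ± 0.18 in the vehicle (SD, n = 5 each). Among nerve and muscle markers, MYH3, an embryonic muscle myosin, rose the same way (2.49 ± 0.20) and the tubulin gene TUBB3 fell (-0.70 ± 0.11, and -0.58 with number 2, under 1.5-fold). MYOD1 changed by 1.14, but both its means lay under 4 (3.91 with quercetin and 2.78 in the vehicle).

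Among the largest falls, DLGAP5 measured 5.53, 4.95, 4.59, 6.12 and 5.41 with quercetin, against 9.73, 9.66, 9.30, 9.57 and 9.63 in the vehicle. The gap between the groups was larger than the spread within either, with a change of -4.26 ± 0.54, adjusted p = 6.39e-08. GALNT15, which starts O-linked glycosylation, measured 2.84, 3.00, 2.94, 3.54 and 3.15 with quercetin, against 5.79, 7.63, 8.02, 7.42 and 7.32 in the vehicle, and the glucose transporter gene SLC2A12 measured 3.47, 3.44, 4.02, 3.91 and 3.97 with quercetin, against 6.33, 8.03, 8.16, 7.93 and 7.73 in the vehicle. Both ended under the level of 4 or next to it on most quercetin arrays, so their changes of -4.14 ± 0.31 and -3.87 ± 0.33 are uncertain in size, and vehicle number 1 was the lowest vehicle array in both. RAB26, a vesicle GTPase (-3.59 ± 0.44), PLA2G4A, the phospholipase that frees arachidonic acid (-3.56 ± 0.36), and the chloride channel family gene CLIC3 (-3.00 ± 0.44) also fell below it. GNG2, a G protein gamma subunit, was 5.97 ± 0.77 with quercetin and 9.39 ± 0.52 in the vehicle (SD, n = 5 each). The other GNG2 probe set above the filter did not pass (-0.58). The transporter genes SLC38A6 (-3.18 ± 0.41) and SLCO1B3 (-2.97 ± 0.36) completed the group.

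**Figure D1:**
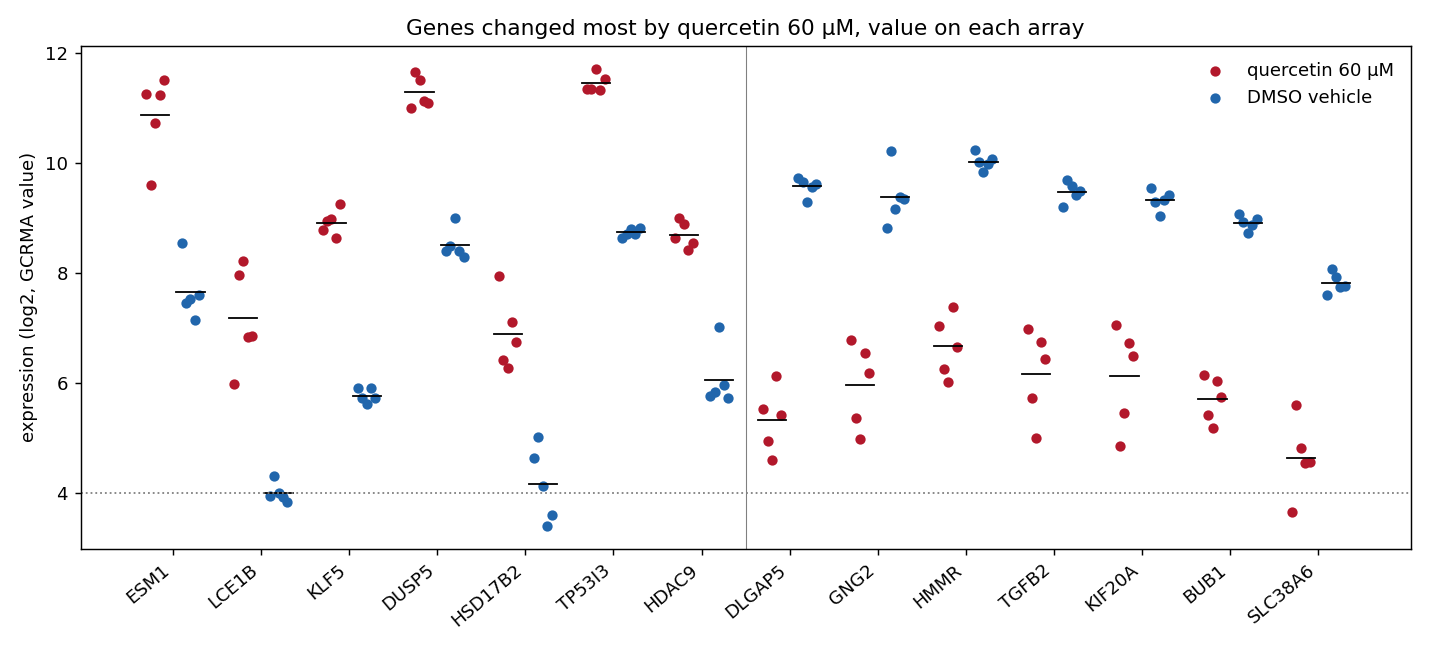
Expression on each array (vertical axis, log2 GCRMA value) of the 7 genes that rose most and the 7 that fell most among those with both group means of at least 4; red points are the 5 quercetin 60 µM arrays, blue points the 5 vehicle arrays, bars the group means and the dotted line the filter level of 4. The genes were picked among called genes with separate group ranges, so the lack of overlap was set by the choice. DLGAP5 averages 5.32 at quercetin 60 µM against 9.58 in the vehicle.

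Genes of G2/M and mitosis fell almost throughout. Of its 53 genes, all measured, 51 fell, 0 rose and 2 did not pass, ECT2 (-0.46) and BUB3 (0.12), against 13.6% of all genes lower. The median change of the list was -1.67 and the range ran down to -4.26 for DLGAP5. HMMR, a spindle and hyaluronan-binding protein whose promoter is shown above with 2 adjoining CHR matches, measured 7.03, 6.26, 6.01, 7.39 and 6.65 with quercetin, against 10.24, 10.03, 9.84, 9.98 and 10.08 in the vehicle. The change was -3.37 ± 0.47, adjusted p = 3.79e-07. BUB1 and BUB1B, kinases of the spindle checkpoint, changed by -3.21 ± 0.42 and -2.99 ± 0.42, and the mitotic kinesin gene KIF20A by -3.21 ± 0.34. ASPM, whose promoter is also shown above, changed by -2.71 ± 0.31. CCNB1, the cyclin that with CDK1 drives entry into mitosis, measured 9.29, 7.61, 7.69, 9.03 and 8.46 with quercetin, against 11.44, 11.02, 10.67, 11.06 and 11.10 in the vehicle. Quercetin arrays 3 and 4 were the lowest, and no quercetin array reached the vehicle range (-2.64 ± 0.31, adjusted p = 1.41e-08). CDK1 itself fell by 1.00, and the mitotic transcription factor gene FOXM1 by 0.60, near the threshold.

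The depth of the mitotic fall differed between arrays. The mean of the 53 genes was 8.51, 6.61, 7.11, 8.25 and 8.01 on the quercetin arrays, against 9.74, 9.44, 9.13, 9.47 and 9.52 on the vehicle arrays. Arrays 3 and 4 were lowest, yet every quercetin array lay under every vehicle array. For the array numbered 2 the mean was 9.01 at quercetin 60 µM, against 9.16 in the vehicle, a difference of -0.15 where the other numbers differed by -2.83 to -1.22. In BUB1B the same order appeared, with 7.44, 4.55, 5.33, 7.27 and 6.84 with quercetin, against 9.64, 9.19, 8.92, 9.27 and 9.35 in the vehicle. The cause of the difference between numbers was not tested.

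Genes of the step before, G1/S and DNA replication, were lower in 12 of 48 cases (25.0%, against 13.6% of all genes) and higher in 2. The other 34 did not pass, and the median change was -0.24. UHRF1, which keeps DNA methylation through replication, measured 9.22, 5.36, 6.90, 8.56 and 8.58 with quercetin, against 10.42, 9.28, 8.95, 9.74 and 9.73 in the vehicle. Quercetin arrays 3 and 4 were lowest and array 1 lay inside the vehicle range (-1.90 ± 0.33, adjusted p = 9.44e-06). The polymerase genes POLA1 (-1.47 ± 0.22) and POLE2 (-1.53 ± 0.29) and the repressor gene E2F8 (-1.42 ± 0.32) also fell. CCNE1, the cyclin of S phase entry, rose by 0.83 and E2F7, a p53-induced repressor, by 0.81, while CCND1 (0.31), E2F1 (-0.07) and PCNA (0.27) did not pass. The list differed most on array 3, with a mean of 7.02 for quercetin, against 8.31 for the vehicle, and on arrays 1, 5 and 6 the difference from the vehicle was -0.12 to 0.07. Without array 3 of quercetin, or without array 3 of the vehicle, 4 genes of the list rose.

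Histone genes fell in 7 of 14 measured, against 13.6% of all genes, and 0 rose. H2AX, the variant that is phosphorylated around DNA breaks, measured 8.79, 7.03, 7.26, 8.42 and 8.01 with quercetin, against 10.37, 9.81, 9.37, 10.12 and 10.04 in the vehicle, a change of -2.04 ± 0.18, adjusted p = 6.98e-11. CENPA, the centromeric histone, fell by 1.98 ± 0.32, and the polyadenylated histone genes H2BC21 (-1.05 ± 0.21) and H2AJ (-0.87 ± 0.14) fell less, with sequences near those of other histone genes. Of 8 topoisomerase and adduct repair genes, the type II enzyme genes TOP2A and TOP2B fell, TOP3A rose (0.88 ± 0.11) and the others did not pass. TOP2A measured 10.78, 8.87, 9.14, 10.61 and 10.38 with quercetin, against 11.72, 11.65, 11.24, 11.79 and 11.75 in the vehicle, and TOP2B 9.37, 9.18, 9.58, 9.46 and 9.52 with quercetin, against 10.26, 10.30, 10.45, 10.29 and 10.26 in the vehicle. The groups did not overlap in either (-1.67 ± 0.28 and -0.89 ± 0.06), and the drop of TOP2B was alike on all arrays while that of TOP2A was deepest on arrays 3 and 4. TDP2, which repairs topoisomerase II adducts, was not called (-0.11).

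Among homologous recombination and Fanconi anemia genes, 5 of 16 fell and 0 rose. FANCM, a helicase that senses stalled forks, was 4.79 ± 0.45 with quercetin and 6.40 ± 0.32 in the vehicle (SD, n = 5 each), a change of -1.61 ± 0.23, adjusted p = 5.55e-07 and FANCB fell too (-0.91 ± 0.17). Of 2 other FANCM probe sets above the filter (-1.40 and -0.40), 1 was called lower. RAD54B measured 6.98, 3.75, 5.16, 6.87 and 6.47 with quercetin, against 7.40, 6.91, 6.42, 7.17 and 7.06 in the vehicle, and only arrays 3 and 4 lay below the vehicle range. It did not pass in the mean of its probe sets (-0.37, adjusted p = 0.168) or without the replicate block (adjusted p = 0.0666), nor did the nuclease gene EXO1 (adjusted p = 0.0961). EXO1 also failed without quercetin array 3 (-0.74, adjusted p = 0.051), where 3 genes of the list fell, and without the block 2 fell. In base and nucleotide excision repair 3 of 22 genes rose (13.6%, against 14.3% of all genes) and 1 fell (4.55%, against 13.6%). XPC, the damage sensor of nucleotide excision repair and a p53 target, measured 8.66, 9.87, 9.49, 8.95 and 9.07 with quercetin, against 7.69, 7.94, 8.07, 7.72 and 7.85 in the vehicle, a change of 1.35 ± 0.13, adjusted p = 3.4e-10. NEIL3, a glycosylase of dividing cells, fell (-1.43 ± 0.41), mostly on arrays 3 and 4.

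Target genes of p53 were higher almost throughout. Of 33 measured (38 listed, and 2 of the 33 under the log2 level of 4 on most vehicle arrays), 28 rose, 0 fell and 5 did not pass, with a median change of 1.15, against 14.3% of all genes higher. TP53I3, a quinone oxidoreductase, measured 11.36, 11.36, 11.72, 11.34 and 11.54 with quercetin, against 8.64, 8.71, 8.80, 8.72 and 8.82 in the vehicle. The spread within each group was a small part of the gap (2.73 ± 0.17, adjusted p = 3.99e-14). FAS, the death receptor, measured 9.58, 10.06, 9.89, 9.47 and 9.70 with quercetin, against 7.59, 7.51, 7.37, 7.48 and 7.42 in the vehicle, a change of 2.27 ± 0.18, adjusted p = 3.51e-12, and 4 of 4 further probe sets were also called higher. SPATA18, of mitochondrial quality control (2.47 ± 0.15), and the ceramidase gene ACER2 (2.48 ± 0.21, from a vehicle mean of 3.87) followed.

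The feedback gene MDM2 and the arrest gene CDKN1A rose by smaller amounts. MDM2, the ligase that degrades p53, measured 10.85, 10.98, 10.80, 10.78 and 10.93 with quercetin, against 9.81, 9.77, 9.42, 9.84 and 9.76 in the vehicle, a change of 1.15 ± 0.09, adjusted p = 1.63e-12, with 6 of 6 further probe sets called higher. CDKN1A, which encodes the CDK inhibitor p21, measured 9.57, 10.13, 10.16, 9.53 and 9.64 with quercetin, against 8.42, 8.53, 8.73, 8.55 and 8.53 in the vehicle. Quercetin arrays 3 and 4 were the highest, and the change was 1.26 ± 0.12, adjusted p = 2.23e-10. GDF15, a secreted stress cytokine, measured 12.99, 13.16, 13.11, 13.15 and 13.22 with quercetin, against 10.77, 11.90, 11.81, 11.37 and 11.48 in the vehicle, a change of 1.66 ± 0.13, adjusted p = 4.82e-12. The 5 that did not pass were BAX (-0.45), PLK2 (-0.44), RPS27L (0.11), TNFRSF10B (0.36) and BBC3 (0.51). The mean of the 33 genes was 9.30 to 9.56 on the quercetin arrays, against 8.14 to 8.32 on the vehicle arrays. On the arrays numbered 2 it was 9.60 at quercetin 60 µM, against 8.35 in the vehicle, and 28 of 33 also passed with number 2. Number 2 of quercetin 60 µM correlated more with etoposide at 3 µM (0.668) than with the other quercetin numbers (0.168). Its values are therefore not read as support for a quercetin response.

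**Figure D2:**
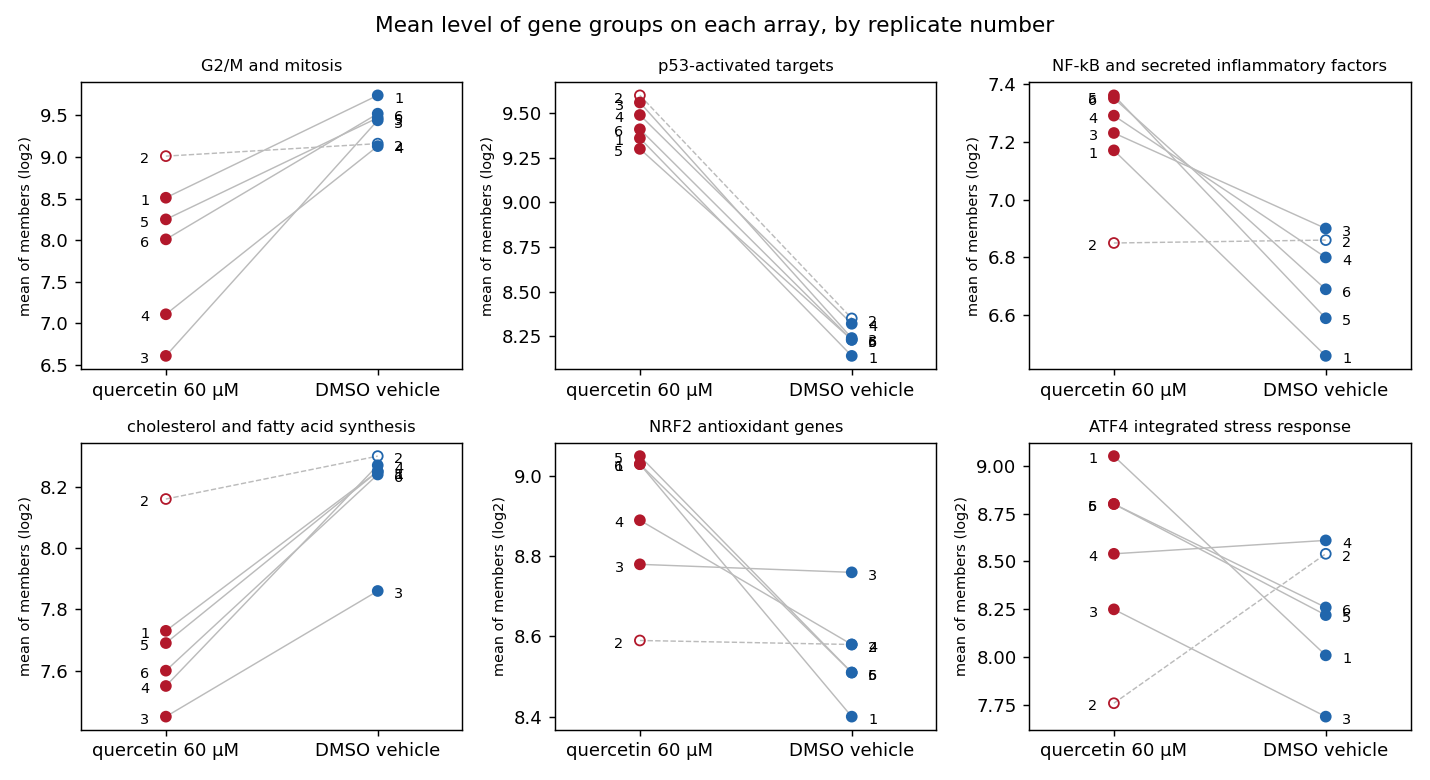
Mean log2 level of the measured genes of 6 groups (vertical axes, which do not start at 0) on each array, quercetin 60 µM at left and vehicle at right, with lines joining arrays of one replicate number; open symbols and dashed lines are number 2, which the comparison leaves out. The p53 target mean is 9.30 to 9.56 on the 5 quercetin arrays against 8.14 to 8.32 on the vehicle arrays, and the mitotic mean is lowest on quercetin arrays 3 and 4.

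In the BCL2 family, which sets the threshold for apoptosis at the mitochondrion, 7 of 14 genes rose, against 14.3% of all genes, and 0 fell. The protective member BCL2A1 measured 9.24, 8.04, 9.15, 9.50 and 9.47 with quercetin, against 6.78, 7.28, 7.37, 6.61 and 7.07 in the vehicle. Quercetin array 3 was the lowest of its group and still above the vehicle (2.06 ± 0.29, adjusted p = 4.04e-07). BCL2L1, which encodes BCL-XL, rose by 1.08 ± 0.11 and the death-promoting PMAIP1, or NOXA, by 0.88 ± 0.12. BCL2 itself measured 7.24, 3.42, 5.68, 6.82 and 6.70 with quercetin, against 5.22, 4.87, 4.90, 4.92 and 4.61 in the vehicle, from below to far above the vehicle range. Its change of 1.07 ± 0.44, adjusted p = 0.0376, did not pass without the block (adjusted p = 0.133), with number 2 (adjusted p = 0.128) or without any 1 of quercetin arrays 1, 4, 5 and 6 or vehicle arrays 1, 5 and 6 (0.87 to 1.09, adjusted p 0.0536 to 0.113).

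Signalling genes downstream of growth factors rose more often than they fell. Of 20 genes of MAPK output and feedback, 8 rose (40.0%, against 14.3% of all genes) and 1 fell (ETV1, -1.12), with a median change of 0.57. These genes are induced by ERK and most of them dampen it. SPRY4, an inhibitor of receptor signalling, measured 7.72, 8.22, 7.89, 7.64 and 7.38 with quercetin, against 6.23, 5.88, 6.33, 5.94 and 5.80 in the vehicle (1.73 ± 0.13, adjusted p = 1.63e-12). DUSP10, a phosphatase of p38 and JNK, measured 9.94, 10.01, 10.05, 9.99 and 10.07 with quercetin, against 8.56, 8.89, 8.75, 8.50 and 8.57 in the vehicle, with close values in each group (1.36 ± 0.09). FOSL1, an AP-1 subunit, changed by 1.14 ± 0.19, while SPRED1 (0.02), DUSP4 (0.08) and ETV5 (0.05) did not pass. DUSP6 lay under the filter level, at 2.68 to 3.30 with quercetin, against 3.14 to 3.70 in the vehicle. Of the EGF receptor and its ligands 1 of 10 rose (10.0%, against 14.3% of all genes), and 3 rose in the mean of probe sets. HBEGF was the gene that rose, at 10.50 ± 0.13 with quercetin and 9.09 ± 0.29 in the vehicle (SD, n = 5 each), a change of 1.42 ± 0.14, adjusted p = 2.82e-10. EGFR did not pass (0.46).

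Among AP-1 and immediate early genes 9 of 20 rose and 1 fell, with a median of 0.59. ATF3, a stress-induced repressor, measured 8.45, 7.61, 8.02, 8.26 and 8.10 with quercetin, against 5.20, 5.01, 6.20, 5.49 and 5.54 in the vehicle, a change of 2.60 ± 0.23, adjusted p = 5.54e-11. IER5, a p53- and heat shock-linked early gene, was 10.48 ± 0.17 with quercetin and 9.06 ± 0.09 in the vehicle (SD, n = 5 each), a change of 1.41 ± 0.09, and MAFF, a small MAF protein, was 11.09 ± 0.33 with quercetin and 9.60 ± 0.13 in the vehicle (SD, n = 5 each), a change of 1.49 ± 0.11. EGR1 measured 7.26, 10.00, 9.31, 7.56 and 7.55 with quercetin, against 6.30, 7.28, 7.56, 6.82 and 7.04 in the vehicle. Arrays 3 and 4 were far above the vehicle range, and the other quercetin arrays reached no higher than its top (1.33 ± 0.29, adjusted p = 0.000245). KLF2, a factor of quiescent endothelial and T cells, was the gene that fell (-1.26 ± 0.14). MYC was not called, at 9.16 ± 0.29 with quercetin and 8.78 ± 0.30 in the vehicle (SD, n = 5 each; change 0.38 ± 0.14, under 1.5-fold).

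In the PI3K, AKT and FOXO list 5 of 19 rose (26.3%, against 14.3% of all genes) and 4 fell (21.1%, against 13.6%). The insulin receptor substrates moved oppositely: IRS1 measured 6.77, 5.35, 6.04, 6.72 and 6.70 with quercetin, against 8.06, 8.44, 8.40, 8.44 and 8.41 in the vehicle, and IRS2 9.91, 10.11, 9.97, 9.73 and 9.83 with quercetin, against 8.58, 9.00, 8.81, 8.52 and 8.51 in the vehicle. Neither overlapped (-2.04 ± 0.25, adjusted p = 3.4e-08 and 1.23 ± 0.14, adjusted p = 1.78e-08). FOXO1 rose by 0.84, and the glucocorticoid- and FOXO-induced TSC22D3 fell (-1.04 ± 0.20). The other TSC22D3 probe set above the filter did not pass (-0.52).

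NF-kB targets and secreted inflammatory factors rose in 11 of the 21 members above the filter (27 listed) and fell in 2, against 14.3% and 13.6% of all genes. Of the 21, 4 were under the log2 level of 4 on most vehicle arrays and could enter only through arrays where they are high, so the count and the median of 0.60 are no support for a rise of the list. CXCL8, the neutrophil chemokine interleukin 8, measured 11.66, 11.15, 11.51, 11.87 and 11.81 with quercetin, against 9.41, 9.58, 9.41, 8.82 and 9.22 in the vehicle, a change of 2.31 ± 0.16, adjusted p = 5.76e-13. TNFAIP3, or A20, which shuts off NF-kB signalling, measured 8.91, 7.57, 8.12, 8.27 and 8.36 with quercetin, against 6.62, 6.23, 6.04, 6.00 and 6.12 in the vehicle (2.04 ± 0.22, adjusted p = 3.08e-09). CXCL3, with close relatives (1.75), RELB (1.66), IL6 (1.66) and IL11 (1.48) rose as well. The 2 that fell make prostaglandin E2 from arachidonic acid. PTGES, the terminal synthase, measured 5.48, 7.92, 6.34, 7.48 and 7.17 with quercetin, against 8.73, 10.30, 9.84, 9.79 and 9.95 in the vehicle, and PTGS2, or cyclooxygenase 2, measured 7.66, 6.59, 6.11, 7.39 and 7.21 with quercetin, against 8.21, 9.69, 8.76, 8.79 and 8.84 in the vehicle. Neither overlapped, with changes of -2.84 ± 0.39, adjusted p = 2.71e-07 and -1.87 ± 0.38, adjusted p = 9.02e-05.

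Interferon-stimulated genes fell more often than they rose, 8 of 20 against 1 (OAS3, 1.09). IFIT1, an antiviral RNA-binding protein, measured 3.97, 2.94, 3.59, 3.54 and 3.73 with quercetin, against 4.76, 5.65, 5.54, 5.91 and 5.94 in the vehicle, ending under 4 (-2.01 ± 0.22, adjusted p = 5.49e-09). IFI35 (-1.79 ± 0.21), the RNA sensor gene RIGI (-1.44 ± 0.18) and IFITM1, with close relatives (-1.73 ± 0.19), also fell. Of 2 other RIGI probe sets above the filter (-0.98 and -0.45), 1 was called lower. MX1 (0.28), ISG15 (0.23), IFIT2 (0.45) and IFIT3 (0.49) did not pass, and their changes were above 0. The list mean was 6.40, 5.90, 6.15, 6.29 and 6.27 with quercetin, against 6.34, 6.65, 6.80, 6.66 and 6.65 in the vehicle, with array 1 of both groups alike.

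Genes of antigen presentation and immune ligands rose in 7 of 18 cases and fell in 1, NLRC5 (-0.87). CD274, the checkpoint ligand PD-L1, measured 10.34, 9.17, 9.62, 9.56 and 9.56 with quercetin, against 8.60, 6.30, 7.32, 6.87 and 7.11 in the vehicle. Array 1 was the highest of both groups (2.41 ± 0.20, adjusted p = 9.57e-12). TAP1, the peptide transporter, measured 8.94, 9.05, 9.49, 8.90 and 9.19 with quercetin, against 6.94, 7.06, 7.33, 6.92 and 7.08 in the vehicle (2.05 ± 0.20, adjusted p = 4.09e-10). PVR, a ligand of DNAM-1 and TIGIT, changed by 1.34 ± 0.19 and HLA-B, whose probes may read other class I genes, by 0.91 ± 0.11, while B2M (0.06) and PSMB8 (0.06) did not pass. HLA-B did not pass on its other probe sets above the filter (0.51 and 0.54).

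NRF2 antioxidant genes rose in 9 of 28 cases and fell in 1, with a median of 0.40, and with number 2 in 6. AKR1B10, an aldo-keto reductase, measured 6.23, 5.79, 6.34, 6.21 and 6.29 with quercetin, against 3.90, 4.15, 3.82, 3.92 and 3.74 in the vehicle, a change of 2.27 ± 0.27, adjusted p = 2.62e-08, from a vehicle level near 4. GCLC, the catalytic subunit of glutathione synthesis, rose by 0.99, the cystine transporter gene SLC7A11 by 1.15 and TXNRD1 by 0.68. AKR1C1, which shares sequence with AKR1C2 and AKR1C3, measured 7.54, 7.02, 6.44, 7.66 and 7.16 with quercetin, against 5.23, 7.13, 5.74, 5.28 and 5.49 in the vehicle. Vehicle array 3 lay inside the quercetin range, and the change was 1.39 ± 0.34, adjusted p = 0.000903. NQO1, the best known target of the pathway, did not pass: 10.02 ± 0.10 with quercetin and 10.16 ± 0.13 in the vehicle (SD, n = 5 each), -0.14 ± 0.07, adjusted p = 0.1. CBR3, a carbonyl reductase, was the gene that fell (-1.43 ± 0.19, adjusted p = 2.04e-07). The mean of the list differed from its own vehicle array by 0.63, 0.02, 0.31, 0.54 and 0.52, lowest on array 3.

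Of 17 heme, iron and ferroptosis genes 4 rose and 1 fell, and with number 2 there were 2 that rose. The 29.4% called is near the 27.9% of all genes. HMOX1, heme oxygenase, measured 8.23, 9.05, 8.48, 8.59 and 8.64 with quercetin, against 6.67, 7.92, 6.74, 6.09 and 6.41 in the vehicle, a change of 1.83 ± 0.18, adjusted p = 3.27e-10. ALAS1, the first enzyme of heme synthesis, measured 8.83, 8.76, 9.07, 8.65 and 8.66 with quercetin, against 7.74, 7.42, 7.90, 7.48 and 7.62 in the vehicle (1.16 ± 0.09, adjusted p = 8.69e-12), and the iron reductase gene STEAP3 fell (-1.29 ± 0.18). The other STEAP3 probe set above the filter did not pass (-0.49). SLC11A2, an iron importer, had 0.75 ± 0.28 and did not pass with number 2 (adjusted p = 0.129), without the block (adjusted p = 0.0624) in the mean of its probe sets (0.26, adjusted p = 0.234) or without vehicle array 4 (adjusted p = 0.0549) or 6 (adjusted p = 0.0518). Metallothionein genes did not pass (MT2A 0.00, MT1X 0.29), the zinc exporter gene SLC30A1 rose (0.81 ± 0.11) and the importer gene SLC39A10 fell (-0.95 ± 0.20).

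Flavonoids bind the aryl hydrocarbon receptor, a xenobiotic sensor. Of 6 genes of its axis, 1 rose (16.7%, against 14.3% of all genes) and 1 fell (16.7%, against 13.6%). AHR measured 9.86, 10.18, 9.79, 10.23 and 10.36 with quercetin, against 8.87, 9.61, 9.45, 9.52 and 9.42 in the vehicle (0.71 ± 0.18, adjusted p = 0.00132), and AHRR, its repressor and target, measured 5.04, 5.70, 4.92, 5.07 and 4.88 with quercetin, against 5.76, 6.54, 6.53, 5.91 and 6.19 in the vehicle (-1.07 ± 0.18, adjusted p = 5.89e-06). TIPARP, another target, did not pass (0.38). CYP1A1 did not pass the filter, at 4.29, 3.55, 3.54, 3.74 and 4.09 with quercetin, against 2.97, 3.68, 3.50, 3.27 and 3.04 in the vehicle, values that overlap, and CYP1B1 lay at 3.00 to 3.43, against 3.13 to 3.32. Of 9 genes of flavonoid conjugation and efflux, UGDH, which makes the sugar donor for glucuronidation, rose (0.82 ± 0.12), and the efflux pump gene ABCG2 fell, with 3.67 ± 0.09 with quercetin and 5.21 ± 0.25 in the vehicle (SD, n = 5 each), a change of -1.54 ± 0.24, adjusted p = 2.27e-06. ABCC4 fell as well (-0.71 ± 0.14), but not with number 2 (-0.58) or in the mean of its probe sets (-0.32).

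Genes of the integrated stress response downstream of ATF4 rose in 13 of 28 cases and fell in 2, and with number 2 in 7 and 1. PPP1R15A, which reverses the response by dephosphorylating eIF2α, measured 7.65, 7.94, 7.69, 7.44 and 7.14 with quercetin, against 5.60, 5.32, 5.72, 5.20 and 5.35 in the vehicle (2.13 ± 0.14, adjusted p = 1.14e-13). TRIB3, a pseudokinase, measured 9.23, 9.02, 9.28, 9.11 and 9.19 with quercetin, against 7.95, 7.32, 8.34, 8.06 and 8.14 in the vehicle (1.20 ± 0.16, adjusted p = 1.93e-07). DDIT3, or CHOP, rose by 0.84, ATF4 by 0.70, ASNS, whose promoter match is printed above, by 0.70, and NUPR1 by 1.82 ± 0.29 from a vehicle mean of 3.88. The amino acid branches did not move together: PHGDH (-0.21), SHMT2 (-0.08), PSAT1 (0.37), MTHFD2 (0.36) and CHAC1 (0.31) did not pass and the transporter gene SLC38A2 fell (-0.70). The list mean was 9.05, 8.25, 8.54, 8.80 and 8.80 with quercetin, against 8.01, 7.69, 8.61, 8.22 and 8.26 in the vehicle. Vehicle array 4 was above quercetin array 4, and for number 2 the values were 7.76 at quercetin 60 µM, against 8.54 in the vehicle.

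Among serine and one-carbon enzymes 1 of 16 rose, CTH (0.85 ± 0.20), and 2 fell, PSPH (-0.61) and GART. The 18.8% called is under the 27.9% of all genes. PSPH, of serine synthesis, was not called without array 3 or 4 of either group (-0.57 to -0.49), which left 1 fall. GART, of purine synthesis, measured 7.50, 7.32, 7.34, 7.74 and 7.56 with quercetin, against 9.27, 9.05, 9.19, 9.17 and 9.15 in the vehicle (-1.67 ± 0.17, adjusted p = 1.67e-09). Of the 5 other GART probe sets above the filter only 2 were called lower, and their changes ran from -1.70 to 0.46. Of 18 cytosolic aminoacyl-tRNA synthetases 1 rose, SARS1, at 10.48 ± 0.24 with quercetin and 9.60 ± 0.28 in the vehicle (SD, n = 5 each), a change of 0.88 ± 0.11, and 2 fell, IARS1 (-0.61) and VARS1 (-0.82). Here too the 16.7% called is under the share of all genes. IARS1 was under 1.5-fold without quercetin array 3 (-0.58) or 4 (-0.58), without vehicle array 4 (-0.57) and with number 2 (-0.53), and VARS1 in the mean of its probe sets (-0.50), which left 1 fall.

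Endoplasmic reticulum genes rose in 8 of 20 cases and fell in 0, with a median of 0.40. ERN1, the sensor kinase IRE1, measured 7.40, 8.23, 7.86, 7.41 and 7.47 with quercetin, against 5.22, 5.96, 5.94, 5.33 and 5.19 in the vehicle (2.15 ± 0.24, adjusted p = 4.64e-09). The other ERN1 probe set above the filter did not pass (-0.05). The ERN1 target XBP1 changed by 0.89 ± 0.12, and the cochaperone gene DNAJB9 measured 10.08, 10.68, 10.36, 10.08 and 9.99 with quercetin, against 8.44, 9.11, 8.88, 8.61 and 8.71 in the vehicle (1.49 ± 0.10, adjusted p = 8.05e-14). The main chaperone genes HSPA5 (0.12), HSP90B1 (0.04) and CALR (0.24) did not pass. Of 16 cytosolic heat shock genes 4 fell and 0 rose. HSPA4L measured 5.02, 4.99, 4.81, 4.91 and 4.64 with quercetin, against 7.31, 6.94, 6.71, 6.89 and 6.87 in the vehicle (-2.07 ± 0.24, adjusted p = 8.9e-09), and HSPA1A, which shares its sequence with a neighbouring copy, measured 9.50, 7.88, 8.27, 9.03 and 8.85 with quercetin, against 10.17, 9.72, 9.19, 9.82 and 9.85 in the vehicle (-1.05 ± 0.21, array 1 inside the vehicle range). Proteasome genes passed in 0 of 21 cases (-0.55 to 0.03).

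**Figure D3:**
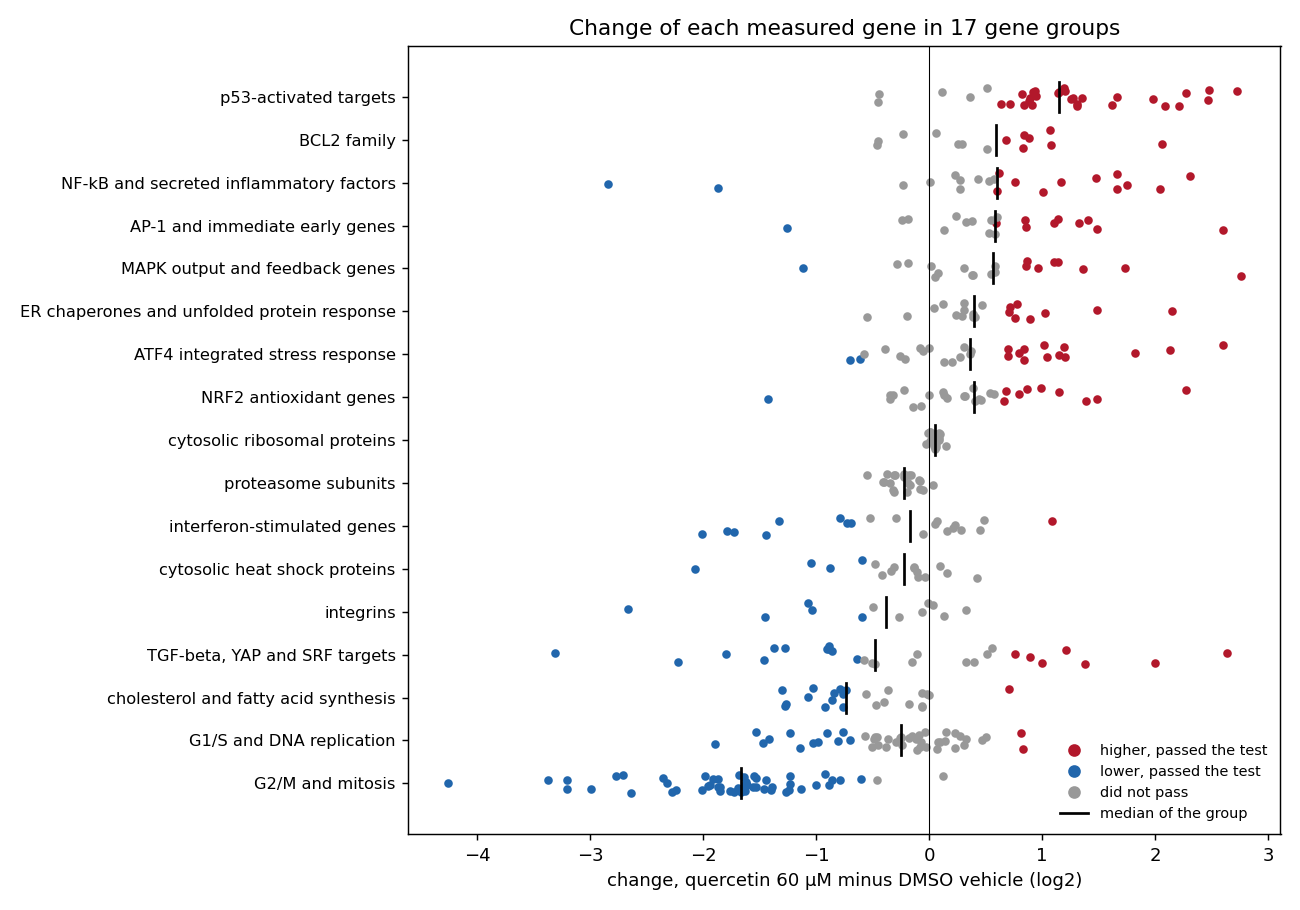
Change of each measured gene (horizontal axis, log2, quercetin 60 µM minus vehicle) in groups of related genes, 1 row a group; red points rose and blue points fell with adjusted p under 0.05 and at least 1.5-fold, grey points did not pass, and black bars are group medians. G2/M and mitosis genes lie left of 0 with a median of -1.67, p53 targets right of it with 1.15, and cytosolic ribosomal proteins between -0.03 and 0.15.

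In lipid synthesis more genes fell than rose. Of 23 genes of cholesterol and fatty acid synthesis 12 fell, 1 rose (SC5D, 0.71) and 10 did not pass, with a median of -0.74, against 13.6% of all genes lower. HMGCS1, which starts the mevalonate pathway, measured 6.99, 5.39, 5.94, 6.59 and 6.43 with quercetin, against 8.03, 6.71, 7.51, 7.83 and 7.76 in the vehicle. Vehicle array 3, at 6.71, was inside the quercetin range (-1.30 ± 0.24, adjusted p = 2.6e-05). DHCR7, the last enzyme of cholesterol synthesis, measured 5.85, 5.35, 5.41, 5.72 and 5.80 with quercetin, against 7.05, 6.48, 7.09, 7.03 and 6.84 in the vehicle (-1.27 ± 0.24, adjusted p = 2.82e-05), ELOVL6, a fatty acid elongase, changed by -1.28 ± 0.14 and the regulator gene SREBF1 by -1.07 ± 0.12. FASN (-0.06), SQLE (0.00) and SCD (-0.47) did not pass. The list mean was 7.45 to 7.73 with quercetin, against 7.86 to 8.27 in the vehicle.

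TXNIP, an inhibitor of thioredoxin and of glucose uptake that MondoA induces when glucose is plentiful, measured 7.60, 7.06, 6.75, 7.50 and 7.23 with quercetin, against 8.75, 10.22, 11.12, 10.38 and 10.17 in the vehicle. All quercetin arrays lay under all vehicle arrays (-2.91 ± 0.36, adjusted p = 5.57e-08), and vehicle array 1 was the lowest vehicle array. ARRDC4, the second classical target, measured 4.28, 5.15, 4.39, 4.13 and 4.29 with quercetin, against 4.06, 5.44, 5.99, 5.32 and 5.39 in the vehicle, with vehicle array 1 below every quercetin array (-0.79 ± 0.26, adjusted p = 0.00986), and ARRDC3 did not pass (-0.01). Of the 7 measured genes of this list 3 fell and 1 rose. The third to fall was MLXIP, the MondoA gene (-0.68 ± 0.15, and -0.49 with number 2, under 1.5-fold). ARRDC2 rose (0.59 ± 0.12), but was under 1.5-fold with number 2 (0.53) or without quercetin array 3 (0.56) or 4 (0.56). The list mean differed from its own vehicle array by -0.02, -0.53, -0.96, -0.68 and -0.64. Hypoxia and glycolysis targets rose in 3 of 24 cases (12.5%, against 14.3% of all genes) and fell in 5 (20.8%, against 13.6%). With number 2 they rose in 1 and fell in 4. ALDOC, an aldolase, measured 7.02, 8.01, 7.92, 7.70 and 7.43 with quercetin, against 8.44, 9.37, 9.75, 9.31 and 9.08 in the vehicle (-1.58 ± 0.13, adjusted p = 9.07e-12), and PDK1, which inhibits pyruvate dehydrogenase, changed by -0.95 ± 0.15. EPAS1, or HIF2α, rose (0.87 ± 0.14), and VEGFA (0.00), SLC2A1 (0.32) and LDHA (-0.44) did not pass.

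Nuclear genes of the respiratory chain fell in 3 of 26 cases (11.5%, against 13.6% of all genes) and rose in 0, against 14.3%, and 1 passed with number 2. ATP5MC1, an ATP synthase subunit, was 8.11 ± 0.11 with quercetin and 8.90 ± 0.14 in the vehicle (SD, n = 5 each), a change of -0.79 ± 0.16. Of 24 autophagy and lysosome genes 5 rose and 2 fell, 29.2% in all, near the 27.9% of all genes. WIPI1, of the early autophagosome, was 9.28 ± 0.54 with quercetin and 8.14 ± 0.59 in the vehicle (SD, n = 5 each), a change of 1.14 ± 0.14 and MCOLN1, a lysosomal calcium channel, 5.84 ± 0.27 with quercetin and 4.88 ± 0.21 in the vehicle (SD, n = 5 each), a change of 0.96 ± 0.12. TFEB, which drives lysosome genes, fell (-1.11 ± 0.24, adjusted p = 0.000189), and SQSTM1 (0.55) and MAP1LC3B (0.52) did not pass. The other TFEB probe set above the filter did not pass either (-0.34).

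Genes of TGF-beta, YAP and SRF signalling moved in both directions, 7 of 27 higher and 11 lower, with a median of -0.48. TGFB2 measured 6.98, 5.72, 4.99, 6.74 and 6.43 with quercetin, against 9.21, 9.70, 9.59, 9.43 and 9.49 in the vehicle. Arrays 3 and 4 were lowest and the groups stood apart (-3.31 ± 0.42, adjusted p = 6.76e-08). TGFBI, a matrix protein named for its induction by TGF-beta, measured 8.35, 8.19, 7.67, 8.55 and 8.27 with quercetin, against 10.49, 10.69, 10.26, 10.18 and 10.52 in the vehicle (-2.22 ± 0.22, adjusted p = 4.86e-10). SMAD6 (-1.80), ID2 (-1.46), SMAD3 (-1.37), ID1 (-0.90) and ID3 (-0.89), factors and targets of BMP and TGF-beta signalling, fell too. BMP2, a ligand of the same pathway, measured 8.06, 8.15, 8.06, 8.32 and 8.18 with quercetin, against 5.54, 6.18, 5.47, 5.04 and 5.33 in the vehicle (2.64 ± 0.24, adjusted p = 1.53e-10). ACTA2, smooth muscle actin, measured 9.06, 10.62, 10.38, 9.36 and 9.52 with quercetin, against 7.25, 8.15, 8.21, 7.64 and 7.66 in the vehicle (2.00 ± 0.13, adjusted p = 8.29e-14), and the YAP targets ANKRD1 (1.21) and CCN1 (0.89) rose, while CCN2 (0.56) and TAGLN (0.40) did not pass.

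Matrix genes were mixed. Of 21 collagen and basement membrane genes 2 rose and 4 fell, 28.6% in all, near the 27.9% of all genes. Without quercetin array 3, quercetin array 4 or vehicle array 4, 1 rose. COL1A1 measured 6.36, 3.07, 3.26, 4.35 and 4.71 with quercetin, against 7.00, 7.04, 5.80, 6.27 and 6.36 in the vehicle. Array 1 stayed inside the vehicle range and arrays 3 and 4 fell under 4 (-2.14 ± 0.31, adjusted p = 5.47e-07). The other 2 COL1A1 probe sets above the filter did not pass (-0.48 and -0.29). COL1A2 fell from a low level (-0.63 ± 0.12), but not with number 2 (-0.41, adjusted p = 0.0626), in the mean of its probe sets (-0.48) or without quercetin array 4 (-0.58). COL13A1 fell (-1.09 ± 0.16) and LAMB3, a laminin chain of epithelia, rose (1.29 ± 0.16). Proteoglycan and matricellular genes rose in 3 of 20 cases (15.0%, near the 14.3% of all genes) and fell in 6 (30.0%, against 13.6%). GPC1, a cell surface heparan sulfate proteoglycan, measured 9.16, 9.01, 9.29, 9.27 and 9.18 with quercetin, against 7.03, 6.98, 7.37, 7.10 and 7.15 in the vehicle (2.06 ± 0.11, adjusted p = 2.06e-15). VCAN, versican, was 8.27 ± 0.43 with quercetin and 10.09 ± 0.35 in the vehicle (SD, n = 5 each), a change of -1.81 ± 0.21, adjusted p = 9.33e-09 and HAS2, which makes hyaluronan, 5.26 ± 0.66 with quercetin and 7.58 ± 0.29 in the vehicle (SD, n = 5 each), a change of -2.31 ± 0.37, adjusted p = 2.98e-06.

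Integrin genes fell in 5 of 12 cases and rose in 0. ITGB8, which activates latent TGF-beta, measured 4.79, 2.85, 3.40, 5.04 and 5.07 with quercetin, against 6.07, 6.61, 7.01, 7.49 and 7.30 in the vehicle (-2.67 ± 0.30, adjusted p = 7.88e-09). ITGA4 changed by -1.45 ± 0.19 and the collagen receptor gene ITGA2 by -1.07 ± 0.15, while ITGB1 (0.03), ITGAV (-0.01) and ITGA5 (0.13) did not pass. Of 15 metalloproteinase and plasminogen genes 4 rose and 3 fell, and without the block 2 rose. PLAU, urokinase, fell, with 10.14 ± 0.49 with quercetin and 11.07 ± 0.04 in the vehicle (SD, n = 5 each), a change of -0.93 ± 0.18, adjusted p = 3.43e-05, and MMP16 fell (-1.59 ± 0.36). MMP1, interstitial collagenase, measured 8.40, 9.72, 8.38, 8.49 and 8.18 with quercetin, against 7.44, 8.96, 8.08, 7.25 and 7.21 in the vehicle, with high values of array 3 in both groups, and its change of 0.85 ± 0.13, adjusted p = 1.15e-06, did not pass without the block (adjusted p = 0.0925). Of the 12 measured mesenchymal markers 3 fell and 0 rose, with VIM (-0.13), CD44 (-0.11) and FN1 (-0.29) not called. The 2 epithelial markers above the filter fell, KRT18 by 1.02 ± 0.14 and KRT8 by 1.16 ± 0.22. The listed keratin genes KRT5, KRT14 and KRT19 lay under 4 in both groups.

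Cytosolic ribosomal protein genes passed in 0 of 25 cases, between -0.03 and 0.15. Of 25 ribosome biogenesis genes 2 fell, the small subunit processome gene UTP20 (-1.37 ± 0.11) and POLR1B, of RNA polymerase I (-0.89 ± 0.12). Splicing factor genes fell in 6 of 24 cases (25.0%, against 13.6% of all genes) and 1 rose (CLK3, 0.85). The falls were led by TRA2A (-1.54 ± 0.27), SRSF7 (-1.09 ± 0.12) and SRSF2 (-1.04 ± 0.10). HNRNPA2B1 fell on its brightest probe set (-1.18 ± 0.19), but not in the mean of its probe sets (-0.31). Of 10 housekeeping genes 1 fell, HPRT1, with 10.19 ± 0.12 with quercetin and 10.91 ± 0.07 in the vehicle (SD, n = 5 each), a change of -0.73 ± 0.11, adjusted p = 1.99e-06, while GAPDH (-0.08), ACTB (-0.31) and TBP (0.05) did not pass.

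The neighbouring doses place 60 µM on the dose series. They share the vehicle arrays with it, so changes from the vehicle are set side by side and only the direct differences are tested. Against the vehicle, the doses of 1, 3, 10 and 30 µM changed 16, 28, 320 and 2180 genes, and those of 60, 80 and 100 µM changed 3163, 3057 and 3400. Between 60 and 30 µM, 73 genes differed (0.644%), 49 higher at 60 µM (0.432%) and 24 lower (0.212%). Between 80 and 60 µM 0 genes passed in limma (0.0%), with 614 at an unadjusted p under 0.05, and 0 also passed in each of the 21 alternative settings.

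Target genes of p53 were among those that still rose between 30 and 60 µM: 7 of 33 passed and 0 fell, against 0.432% of all genes higher. They were ACER2 (a difference of 1.10), TP53INP1 (0.82), FAS (0.76), TP53I3 (0.70), XPC (0.63), PPM1D (0.60) and NECTIN4 (0.59), beside CDKN1A, whose difference of 0.57 ± 0.12 was under 1.5-fold. Without quercetin 60 µM array 3 there were 2 of them, without array 4 there were 3, and without the block 4. RRAD, a small GTPase, changed from the vehicle by -0.17, -0.16, -0.19, 0.10, 1.60, 1.97 and 2.19 at 1, 3, 10, 30, 60, 80 and 100 µM, and differed between 60 and 30 µM by 1.5 ± 0.28. CYP4F2 (1.58 ± 0.29), CYP4F3 (1.34 ± 0.26), CEACAM1 (1.76 ± 0.38) and LCE1B (1.60 ± 0.37) had the other large rises above 30 µM. In the early genes EGR1 (1.30 ± 0.29) and ATF3 (0.96 ± 0.23) passed as well.

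Of the mitotic genes 42 of 53 were already lower at 30 µM, and 2 passed between 60 and 30 µM, KIF14 (-1.13 ± 0.29) and the kinase gene AURKA (-0.96 ± 0.24). Neither the 2 nor any other gene of the list passed without quercetin 60 µM array 3 or without array 4, and 28 of the list passed in a fit of the 30 and 60 µM arrays alone. CLMP, a junction protein, differed by -0.96 ± 0.22, having been higher than the vehicle at 10 µM (0.80) and 30 µM (0.60) and not called at 60 µM (-0.36). PDE5A, a cyclic GMP phosphodiesterase (-1.07 ± 0.26), and PSRC1, of the spindle (-0.93 ± 0.22), fell further at 60 µM. The 73 genes were fewer without array 3 (16) or array 4 (18) of quercetin 60 µM and more without array 5 (109).

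Some genes had a larger estimated change from the vehicle at 10 or 30 µM than at 60 µM. The difference between 60 and 10 µM was not tested. AKR1C1 changed from the vehicle by 0.96, 2.12, 3.19, 2.49, 1.39, 1.18 and 1.37 at 1, 3, 10, 30, 60, 80 and 100 µM, and its difference of -1.10 ± 0.34 between 60 and 30 µM did not pass (adjusted p = 0.0785). NQO1 changed by 0.25, 0.55, 0.65, 0.20, -0.14, -0.11 and -0.15 over the same doses, passing at 10 µM only, with -0.34 ± 0.07 between 60 and 30 µM, under 1.5-fold. CXCL8 changed by 1.11, 1.66, 2.56, 2.73, 2.31, 2.03 and 2.06. Its difference of -0.42 ± 0.16 between 60 and 30 µM did not pass (adjusted p = 0.151). The changes of TXNIP and IRS1 were largest at 100 µM. TXNIP changed by -0.31, -0.70, -1.72, -2.73, -2.91, -2.77 and -3.25, and IRS1 by 0.02, 0.15, -0.05, -1.25, -2.04, -2.38 and -2.44.

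**Figure D4:**
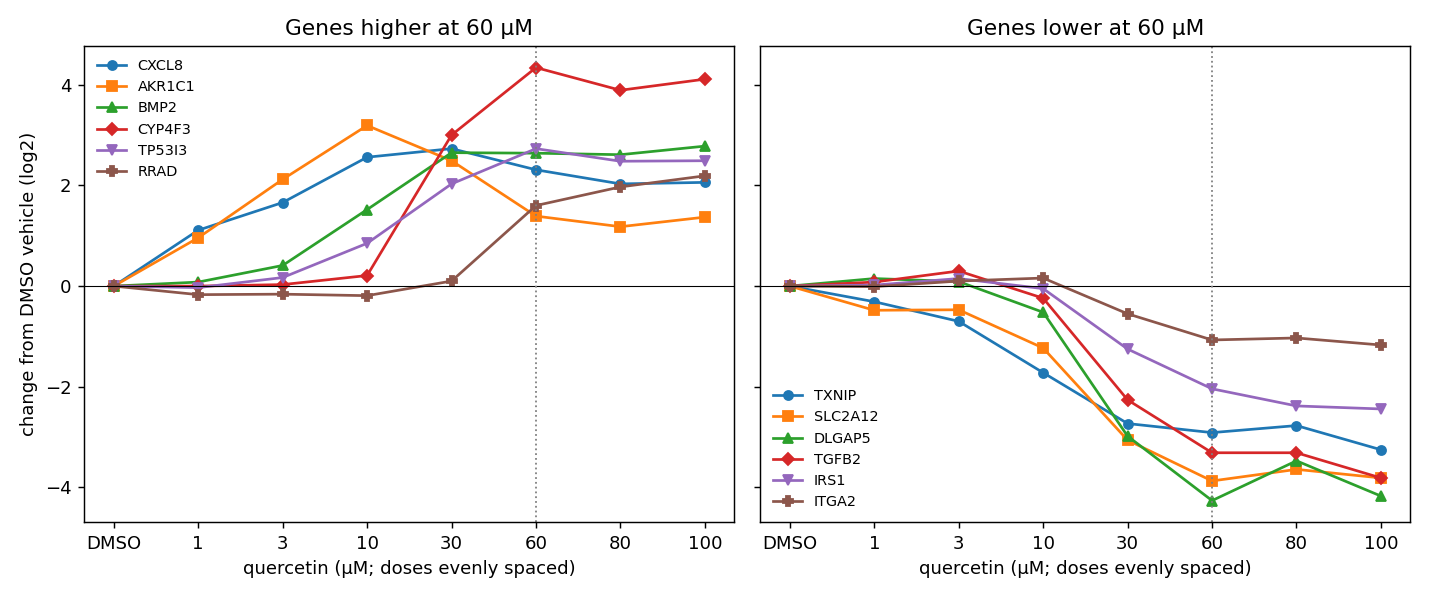
Change from the vehicle (vertical axis, log2, 5 arrays a dose) of 6 genes higher and 6 genes lower at 60 µM, by quercetin dose from the DMSO vehicle to 100 µM (horizontal axis, evenly spaced steps); the dotted line marks 60 µM. RRAD is at 0.10 at 30 µM and 1.60 at 60 µM, and AKR1C1 is highest at 10 µM (3.19).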

How the data were processed

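RNA of HT-1080 cells was read on Affymetrix arrays. The log2 values used here are the authors' deposited ones, made by GCRMA in Partek per the submitters' processing notes, with versions and genome build not given in the sources used here. GCRMA pools probes into probe sets and sets background probes near a common low value, so the size of changes of genes under 4 is uncertain. Of 54613 probe sets, 40914 carried 1 gene symbol, 864 several and 12835 none.

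From these values, probe sets with a log2 value of at least 4 on at least 5 of 40 arrays (7 quercetin doses and the vehicle, numbers 1, 3, 4, 5 and 6) were kept, 24888 in all, of which 3730 had no or several symbols and were left out. Each gene was represented by its probe set of highest mean, giving 11344 genes. limma 3.58.1 in R 4.3.3 fitted dose groups with the replicate number as a block and moderated variances, with Benjamini-Hochberg adjustment over all genes. A gene was called at an adjusted p under 0.05 and at least 1.5-fold, and the script was tested on simulated data. Number 2 was left out of every group, since number 2 of quercetin 60 µM moved like the etoposide arrays. The genes described are the 15 called genes that rose and the 15 that fell most at 60 µM with separate group ranges, up to 4 called members of each list with the largest change, a further group (CDKN1A, MDM2, GDF15, HMOX1, NQO1, CYP1A1, CYP1B1, TXNIP, CCNB1, TOP2A, DUSP6 and MYC), and up to 5 called genes each way between neighbouring doses; other list members are given as part of a list. The members and lists were chosen with earlier results of these data known. The precision is limited by the number of arrays. Alternatives changed the block, samples, filter, probe set rule, scaling and variance trend, added number 2, and left out each array in turn. Etoposide arrays were used only to describe number 2, and methyl methanesulfonate arrays were not used here.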

Additional observations from a re-analysis of the deposited data

Results flagged for a closer look

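Within each group of 5 arrays, single arrays far from the other 4 were looked for in the named genes. Of 344 groups checked, 25 held such an array, and chance flags about 1 in 20 groups. All values are log2 expression.

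At quercetin 60 µM, array 3 stood apart in 7 genes. It was high for AHRR (5.70, others 4.88 to 5.07), ARRDC4 (5.15, others 4.13 to 4.39), CLIC3 (4.80, others 2.55 to 3.04) and MMP1 (9.72, others 8.18 to 8.49). It was low for AKR1B10 (5.79, others 6.21 to 6.34), BCL2A1 (8.04, others 9.15 to 9.50) and SLC11A2 (7.43, others 8.19 to 8.37). Array 4 was low for SLC39A10 (8.37, others 9.22 to 9.28).

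In the vehicle, array 4, the array with the unexplained suffix nf in its title, stood apart in 9 genes. It was high for DUSP5 (9.01, others 8.30 to 8.50), HDAC9 (7.02, others 5.72 to 5.97), NUPR1 (4.97, others 3.51 to 3.73), SARS1 (10.08, others 9.39 to 9.59) and TOP2B (10.45, others 10.26 to 10.30). It was low for DNAJA1 (11.1, others 11.48 to 11.58), KIF14 (8.28, others 8.92 to 9.17), MDM2 (9.42, others 9.76 to 9.84) and TOP2A (11.24, others 11.65 to 11.79).

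Vehicle array 1 was low for AHR (8.87, others 9.42 to 9.61), IRS1 (8.06, others 8.40 to 8.44), PDE5A (7.63, others 8.23 to 8.35) and SLC2A12 (6.33, others 7.73 to 8.16). It was high for COL1A2 (4.66, others 4.40 to 4.46) and SLC11A2 (7.77, others 7.15 to 7.30). Vehicle array 3 was high for AKR1C1 (7.13, others 5.23 to 5.74) and SLC39A10 (11.0, others 9.73 to 9.81).

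The array numbered 2 of quercetin 60 µM is outside the comparison. Its response across genes correlated at 0.668 with the response to etoposide at 3 µM, where the other numbers lay at 0.34 to 0.415. The cause was not tested.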

How the results depend on the processing

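The count of genes changed at quercetin 60 µM was 3163 and lay between 2447 (with number 2) and 3257 under 21 alternatives. It was 3043 with no replicate block, and 3026 to 3257 when 1 of the 10 arrays was left out. Same-numbered arrays of quercetin 60 µM and vehicle deviated together with correlations of 0.071 to 0.431 (mean 0.221), against a mean of -0.052 for different numbers. Of the 5 pairs, 4 were over 0.1, and 2 numbers correlated best with their own, so the numbers were not shown to pair the arrays. The 73 genes between 60 and 30 µM were 27 with number 2, 16 with no replicate block, 259 in a fit of only the 2 groups, and 16 to 109 when 1 array was left out, the low values being without quercetin 60 µM array 3 (16) or array 4 (18). The 259 rest on a variance estimated from fewer arrays, and otherwise the cause was not tested. Between 80 and 60 µM, 0 genes passed under any alternative in limma, with 239 to 1709 genes at an unadjusted p under 0.05. Of 169 named genes called at 60 µM, 151 kept the call under all 21 alternatives, 18 lost it under at least 1, and 0 of 172 reversed. With number 2, 13 lost it, in the mean of probe sets 7, with no replicate block 5, and with 1 array left out 9. The median change of all genes was 0.028, and -0.001 after median centring. Signals near the log2 level of 4 limit the sizes of changes.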
